A study of Mus musculus with 9 samples.

Results

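The 6 libraries of mouse 2-cell embryos that had been loaded with high glucose were compared with the 3 libraries of control embryos, out of 9 libraries in all. The 6 were chosen by their labels alone: 3 came from embryos given high glucose (called glucose alone here) and 3 from embryos given high glucose and the serum of rats dosed with the drug that the labels name ZGW (called glucose with serum). Every library was made from 3 pooled embryos of the ICR strain, an outbred mouse stock, which had been cultured from zygotes. The labels give no glucose dose, no embryo age in hours and no composition of ZGW, and they do not say whether the control and glucose-alone embryos received serum from undosed rats. A difference present in both glucose-loaded groups is shared by embryos with and without drug serum, whereas a difference between those groups holds any effect of serum itself. The labels call the 3 libraries of a group biological replicates without naming their matings, so each p-value reflects only how far these pooled samples vary, which may be technical.

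The 2-cell stage is when the mouse embryo begins large-scale transcription of its own genome while RNA stored in the oocyte is being degraded. Embryos of this age use pyruvate and lactate as their main fuels, take up little glucose, and are known to develop poorly when glucose is high. Ribosomes inherited from the oocyte are supplemented by new ribosomal proteins, whose messages carry a run of pyrimidines at their first bases that places them under the nutrient-sensing kinase mTOR.

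Library totals ranged from 11934924 to 16916343 counts, and 16964 of 24454 genes had enough counts to be tested. Among stage markers, Zscan4c, a gene of the 2-cell activation wave, had 473 to 4375 CPM (counts relative to the library total, scaled by TMM factors) in every library. Cdx2, a gene of the later trophectoderm, stayed between 0.445 and 5.74 CPM, and Sox17 reached 2.50 CPM. Other listed markers of later stages were not as low. Krt18 reached 50.9 CPM, Sox2 35.3 CPM, Krt8 15.2 CPM, Gata6 12.3 CPM and Nanog 11.3 CPM in their highest library. Control library 1 and library 3 with serum stood farthest apart on the leading principal component (17.8% of variance), so results were also computed without both. The biological coefficient of variation common to all genes was 0.731. For the 6 against 3 libraries, a log2 fold change carried a standard error of 0.67 in the median gene.

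Between the 6 glucose-loaded and the 3 control libraries, no gene passed the edgeR quasi-likelihood test at an adjusted p under 0.05. The count was 0 of 16964 genes (0%), with a lowest adjusted p of 0.111 in edgeR. At an unadjusted p under 0.05 edgeR had 833 genes lower (4.91%) and 659 higher (3.88%) in the glucose-loaded embryos. DESeq2, run as an alternative, called 139 genes lower (0.819%) and 99 higher (0.584%), whereas limma-voom called 0, with a lowest adjusted p of 0.0800. In 348 genes (2.05%) all 6 glucose-loaded libraries lay below all 3 controls, and in 334 genes (1.97%) all 6 lay above them. Over all genes tested the median log2 fold change was -0.03. In these bulk samples fewer cells of a type and less RNA per cell cannot be told apart.

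**Figure D1:**
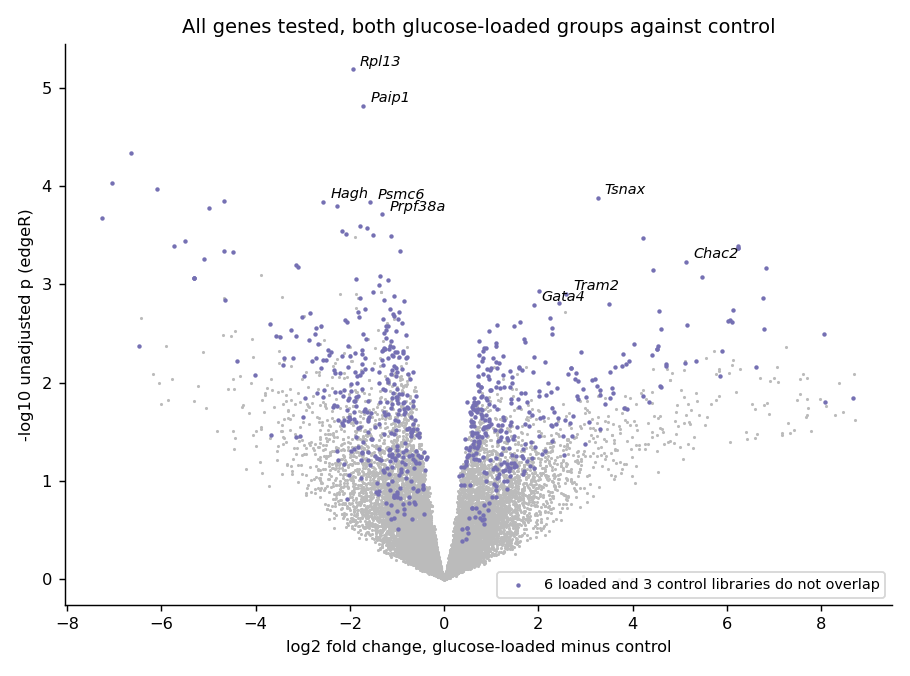
Each point is 1 of 16964 genes, with the log2 fold change of the 6 glucose-loaded against the 3 control libraries on the x axis and the negative log10 of the unadjusted edgeR p on the y axis. Purple points are the 682 genes whose glucose-loaded and control libraries do not overlap, and the named genes have a mean of at least 10 CPM. Rpl13 has the lowest p, and Tsnax has the lowest p of the named genes on the higher side.

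The genes described first are those whose 6 glucose-loaded libraries did not overlap with the 3 controls, taken in order of p with 12 on each side and a mean of at least 10 CPM. On the lower side they include genes for parts of the ribosome, the spliceosome, the proteasome and the RNA export machinery, and on the higher side genes for a glutathione-degrading enzyme, a translin partner and the transcription factors Gata4 and Gcm2. Their log2 fold changes ran from -2.57 to -1.12 on the lower side, with edgeR adjusted p from 0.111 to 0.272. On the higher side they ran from 0.75 to 5.14, with edgeR adjusted p from 0.255 to 0.469. The filter on the mean over 9 libraries does not treat both sides alike. Tsnax, Chac2, Ptdss1, Tram2, Gata4 and Hsdl1 had a control mean under 10 CPM and passed through the 6 glucose-loaded libraries. Hagh and Snord68 passed through the 3 controls, which takes a higher level per library. The ranges of the 2 sides are therefore not compared. None of the 24 passed edgeR or limma-voom, and all 24 were among the calls of DESeq2. The values below therefore describe these libraries and are not calls of the test.

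Rpl13, a protein of the large ribosomal subunit, had the lowest p of all genes. Its level was 222, 284 and 163 CPM in control, 62.1, 84.6 and 52.7 CPM with glucose alone, and 51.0, 48.0 and 54.3 CPM with glucose and serum. The highest glucose-loaded library was far below the lowest control, and the 2 glucose-loaded groups overlapped each other. The log2 fold change was -1.94 ± 0.24 (SE; edgeR adjusted p = 0.111). The difference between glucose with serum and glucose alone was -0.38 (95% interval -1.02 to 0.26). Of the 50-base stretches of Rpl13 transcripts, 24.4% also occur in other annotated genes, so reads of pseudogene copies may be mixed into its count.

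The small nucleolar RNA Snord68, a guide of ribose methylation, and the microRNA gene Mir7079 were also among the 12 lower genes, but both lie inside Rpl13. In GENCODE annotation of GRCm38, Rpl13 spans chromosome 8 from 123102350 to 123105244 on the plus strand. Snord68 occupies 123103038 to 123103123 and Mir7079 occupies 123104975 to 123105043. Both sit in introns of the protein-coding transcript and in exons of a transcript with retained introns. Snord68 had 40.4, 56.1 and 30.5 CPM in control and 5.16 to 13.6 CPM in the 6 glucose-loaded libraries (log2 fold change -2.28 ± 0.41). Mir7079 had 52.0, 64.0 and 40.3 CPM in control and 13.0 to 22.0 CPM in the 6 (log2 fold change -1.63 ± 0.31). Reads of the host transcript and reads of the small RNAs cannot be told apart in the deposited counts, so these 3 genes are 1 locus and 1 observation. The hairpin and mature sequences of Mir7079 are shown because the hairpin is the end of an intron of its host, up to the last base before the final exon, with the seed (bases 2 to 8) of each mature RNA in capitals, from RefSeq on GRCm38.p6.
Mir7079 hairpin, chr8:123104975-123105043, plus strand: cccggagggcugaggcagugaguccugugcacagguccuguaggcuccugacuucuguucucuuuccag
mmu-miR-7079-5p: aGGGCUGAggcagugaguccug
mmu-miR-7079-3p: uGACUUCUguucucuuuccag

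Paip1 was the most abundant of the 12 lower genes. It encodes a partner of the poly(A)-binding protein that favours translation, and it lies on chromosome 13 from 119428601 to 119458218. Its level was 3368, 3573 and 2369 CPM in control, 2284, 1715 and 1232 CPM with glucose alone, and 567, 422 and 556 CPM with glucose and serum. All 3 glucose-alone libraries lay under the lowest control, 1 of them closely, and each library with serum lay under both groups. The pooled log2 fold change of -1.71 ± 0.23 (edgeR adjusted p = 0.129) therefore averages unequal values, -0.83 with glucose alone and -2.59 with glucose and serum. The difference between the 2 glucose-loaded groups was -1.76 (95% interval -2.39 to -1.13; edgeR adjusted p = 0.370).

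Ythdf2 and Zfp36l2, a reader of methylated RNA and a binder of AU-rich elements that both promote message decay, also lay lower. Ythdf2 had 602, 628 and 383 CPM in control, 295, 282 and 312 CPM with glucose alone, and 202, 174 and 74.5 CPM with glucose and serum (log2 fold change -1.35 ± 0.29). As for Paip1, the libraries with serum were the lowest, and the difference between the glucose-loaded groups was -0.98 (95% interval -1.77 to -0.20; edgeR adjusted p = 0.512). Zfp36l2 had 82.5, 66.9 and 59.7 CPM in control and 17.6 to 47.0 CPM in the 6 glucose-loaded libraries. Of the 53 tested genes of RNA storage and decay, 3 were lower in all 6 libraries (Paip1, Ythdf2 and Zfp36l2; 5.66%, next to 2.05% of all genes) and 2 higher (3.77%, next to 1.97%). The higher ones were Dcp1a, a decapping activator, and Lsm14a, a protein of messenger particles. The median of the list was -0.04, next to -0.03 over all genes.

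Among the 12 lower genes, Snrpc, Prpf38a and Nxt1 act in RNA splicing and export. Snrpc, a protein of the U1 particle that recognises the start of introns, had 56.0, 63.7 and 54.2 CPM in control, 24.6, 26.9 and 17.9 CPM with glucose alone, and 22.8, 17.2 and 13.2 CPM with glucose and serum (log2 fold change -1.52 ± 0.29). Prpf38a, a splicing factor needed to activate the spliceosome, had 114, 132 and 169 CPM in control and 35.3 to 69.6 CPM in the 6 (log2 fold change -1.32 ± 0.24). Nxt1, the cofactor of the messenger RNA exporter Nxf1, had 213, 149 and 151 CPM in control and 69.0 to 105 CPM in the 6 (log2 fold change -1.12 ± 0.22). For each of these 3 genes the highest glucose-loaded library was well below the lowest control. Of 41 tested spliceosome genes 17 were lower and 24 higher, and their median difference from control was -0.38 with glucose alone and 0.43 with glucose and serum.

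Psmc6, an ATPase of the ring that feeds proteins into the proteasome, had 155, 143 and 146 CPM in control, 104, 54.3 and 50.7 CPM with glucose alone, and 41.6, 27.3 and 37.3 CPM with glucose and serum. The 3 controls were nearly equal, and each library with serum was below each with glucose alone. The log2 fold change was -1.57 ± 0.28, and the difference between the glucose-loaded groups was -0.98 (95% interval -1.72 to -0.24; edgeR adjusted p = 0.486). Of 32 tested proteasome genes 22 were lower, with a median of -0.36, and 5 had an unadjusted p under 0.05 (15.6%, next to 4.91% of all genes), all lower. The 5 were Psmc6, Psmd3, Psmd7, Psmd8 and Psmd14.

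Hagh encodes glyoxalase II, which releases glutathione and lactate from the product of methylglyoxal, a reactive by-product of glycolysis. It had 21.2, 20.9 and 40.2 CPM in control, 5.60, 7.85 and 3.26 CPM with glucose alone, and 4.26, 3.94 and 3.29 CPM with glucose and serum. All 6 glucose-loaded libraries were under 8 CPM, and the log2 fold change was -2.57 ± 0.45 (edgeR adjusted p = 0.255), the lowest of the 12. Hagh overlaps Fahd1 on the other strand (chromosome 17, 24840143 to 24864450 for Hagh), and no source used here says whether strand was used in counting.

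The other lower genes were Celf4, Fxyd5 and Tagln2. Celf4, an RNA-binding regulator of splicing, had 63.9, 46.9 and 45.8 CPM in control and 8.18 to 29.2 CPM in the 6 (log2 fold change -1.77 ± 0.33). Fxyd5, a small membrane regulator of the sodium pump, had 79.5, 42.0 and 34.4 CPM in control and 5.98 to 19.9 CPM in the 6 (log2 fold change -2.16 ± 0.41). Tagln2, an actin-binding protein, had 63.6, 43.8 and 34.3 CPM in control and 4.89 to 27.6 CPM in the 6 (log2 fold change -2.09 ± 0.40). In Fxyd5 and Tagln2 control library 1 was the highest of the 9.

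Fxyd5 and Tagln2 are also expressed in epithelial cells, and most tested markers of stroma, endothelium and epithelium had a lower pooled log2 fold change. All 17 listed markers were in the table and 8 were tested, of which 7 were lower, with a median of -1.07. The median of the 8 by library, relative to the control mean, was -0.88, 0.78 and -0.17 in control. It was -1.88 to 0.0023 in the 6, so the libraries overlapped. The summed level of the 17 was 111 to 237 CPM in control and 28.9 to 103 CPM in the 6, with no overlap. Epcam made up much of it, with 58.3, 107 and 52.3 CPM in control, 36.1, 48.1 and 31.1 CPM with glucose alone, and 14.3, 23.8 and 1.16 CPM with glucose and serum. Without Epcam the summed levels overlap, since glucose-alone library 2 then lies above control library 1. Krt18 had 28.5, 50.9 and 13.1 CPM in control and 0.691 to 17.1 CPM in the 6. Krt18 and Krt8, both in this list, are also among the markers of later stages given above. The median of the list was -0.48 without control library 2 and -1.74 without glucose-alone library 1. Col3a1, Dcn and Pax8 had 2, 6 and 4 counts over the 9 libraries. The stromal Lum had 0, 7.83 and 12.1 CPM in control, 0 in each glucose-alone library and 0 to 2.82 CPM with serum, whereas the endothelial Pecam1 had 19.6, 35.9 and 22.1 CPM in control and 7.26 to 36.3 CPM in the 6. Of 24 cumulus and granulosa cell markers 10 were tested and 9 were lower. Their summed level was 62.3 to 104 CPM in control and 45 to 68.5 CPM in the 6, much of it Serpine2. Igfbp5 had 7.74, 1.57 and 2.78 CPM in control and 0 to 0.158 CPM in the 6, and the luteinising markers Areg and Ereg had 1 count each over all libraries. Markers of blood and sperm were not lower in the same way. Of 8 tested blood markers 4 were lower and 4 higher. The 17 listed ones summed to 268 to 400 CPM in control and 95.7 to 543 CPM in the 6. Of 11 tested sperm markers 7 were lower. The 14 listed ones summed to 81.4 to 165 CPM in control and 93.9 to 157 CPM in the 6. The part of these markers in the lower genes was not tested.

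**Figure D2:**
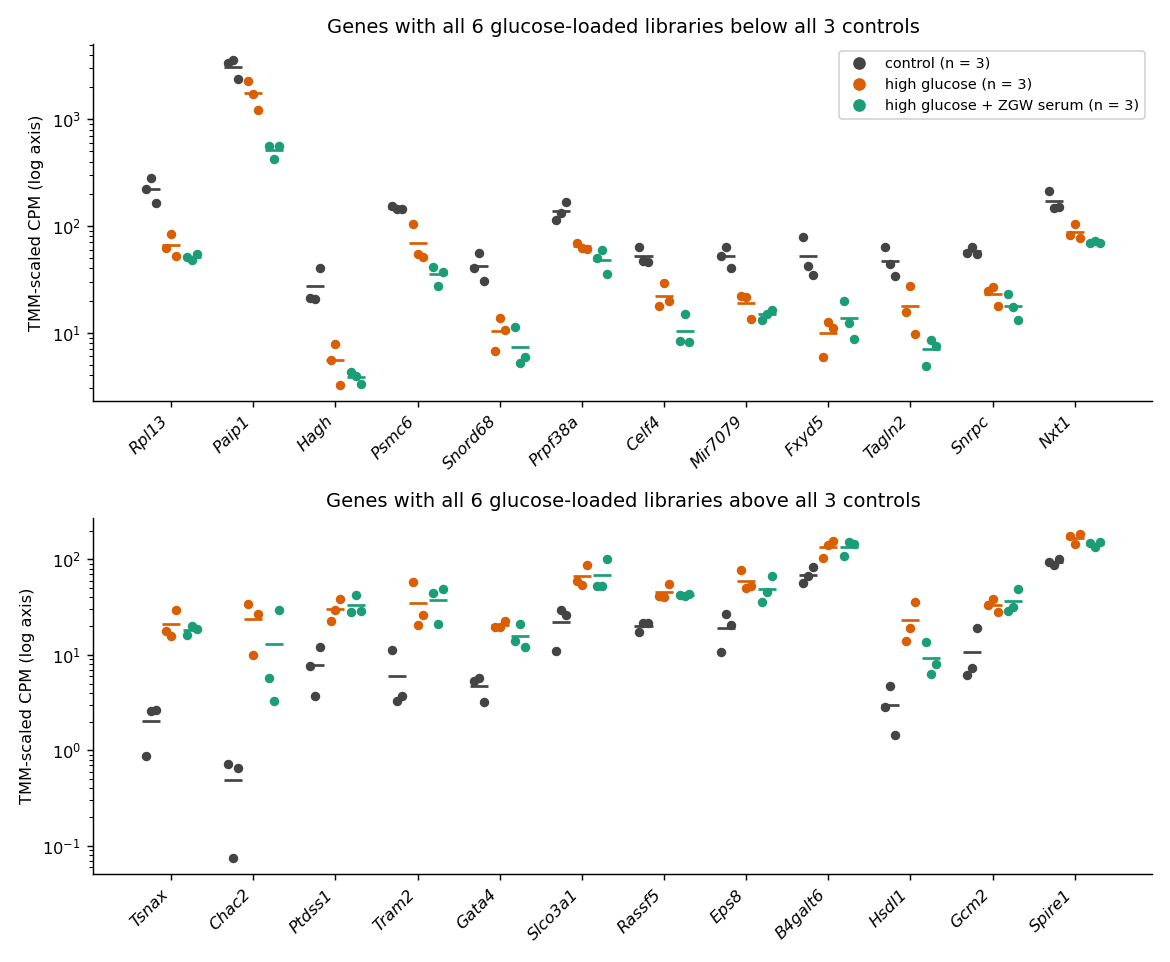
Each point is 1 library, in TMM-scaled CPM on a log axis, and each bar is the mean of a group of 3. The upper panel holds the 12 lower and the lower panel the 12 higher genes; Paip1 and Psmc6 show glucose with serum under glucose alone, whereas in Tsnax and Rassf5 the 2 glucose-loaded groups overlap.

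On the higher side, Tsnax had the lowest p. It encodes the partner of translin, with which it forms an RNA-cleaving complex, and lies on chromosome 8 from 125012997 to 125034192. Its level was 0.876, 2.61 and 2.63 CPM in control, 17.7, 15.9 and 29.4 CPM with glucose alone, and 16, 19.8 and 18.8 CPM with glucose and serum. All 6 glucose-loaded libraries were at least 15.9 CPM, and no control reached 3 CPM. The log2 fold change was 3.26 ± 0.57 (edgeR adjusted p = 0.255), and the glucose-loaded groups differed by -0.20 (95% interval -1.40 to 1.00).

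Chac2 had the largest log2 fold change of the 12, at 5.14 ± 1.07 (edgeR adjusted p = 0.323). It encodes an enzyme that degrades glutathione, the main thiol antioxidant of the embryo. Its level was 0.730, 0.0746 and 0.658 CPM in control, 34.4, 10.1 and 26.8 CPM with glucose alone, and 5.68, 3.30 and 29.8 CPM with glucose and serum. The gene was nearly undetected in control, and the 6 glucose-loaded libraries spread over a wide range. Asb3 overlaps Chac2 on the other strand (chromosome 11, 30976707 to 30986350 for Chac2).

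Gata4, a transcription factor of primitive endoderm and heart, had 5.33, 5.74 and 3.22 CPM in control, 19.6, 19.7 and 22.4 CPM with glucose alone, and 14, 21.2 and 12.1 CPM with glucose and serum (log2 fold change 1.92 ± 0.46). Its lowest glucose-loaded library was above the highest control, and it lies on chromosome 14 from 63198922 to 63271692. Gcm2, a transcription factor of the parathyroid, had 6.13, 7.38 and 19 CPM in control and 27.9 to 49.3 CPM in the 6 (log2 fold change 1.69 ± 0.46). Rassf5, a Ras effector, had 17.2, 21.7 and 21.6 CPM in control, 41.4, 40.0 and 55.0 CPM with glucose alone, and 41.9, 41.3 and 42.9 CPM with glucose and serum (log2 fold change 1.12 ± 0.29). Rassf5 had the tightest levels of these: 5 of its 6 glucose-loaded libraries lay between 40.0 and 42.9 CPM. Eif2d overlaps Rassf5 on the other strand. Eps8, an actin regulator, had 10.7 to 26.6 CPM in control and 35.8 to 77.5 CPM in the 6 (log2 fold change 1.49 ± 0.38), and Spire1, an actin nucleator of the oocyte, had 86.7 to 99.8 CPM against 134 to 186 CPM (log2 fold change 0.75 ± 0.20).

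The other higher genes were Ptdss1, B4galt6, Tram2, Slco3a1 and Hsdl1. Ptdss1, which makes phosphatidylserine, had 7.74, 3.73 and 12.1 CPM in control and 22.8 to 41.9 CPM in the 6 (log2 fold change 2.01 ± 0.46). It overlaps Mterf3 on the other strand. B4galt6, which makes lactosylceramide, had 56.8, 67.5 and 83.6 CPM in control and 104 to 154 CPM in the 6 (log2 fold change 0.95 ± 0.25). Tram2, a protein of the endoplasmic reticulum membrane, had 11.2, 3.28 and 3.73 CPM in control and 20.4 to 58.6 CPM in the 6 (log2 fold change 2.59 ± 0.60). Slco3a1, an organic anion carrier, had 10.9 to 29.6 CPM in control against 52.4 to 100.1 CPM (log2 fold change 1.60 ± 0.41). Hsdl1, a dehydrogenase-like protein, had 1.46 to 4.70 CPM against 6.38 to 36.1 CPM (log2 fold change 2.29 ± 0.61). After adjustment over all genes tested, edgeR called 0 genes between the 2 glucose-loaded groups. For none of the 12 higher genes did the unadjusted 95% interval of that difference leave 0. It did for 4 of the 12 lower genes, with edgeR adjusted p of 0.370 (Paip1), 0.486 (Psmc6), 0.523 (Celf4) and 0.516 (Tagln2). These intervals are wide, so the higher genes are not shown to be equal in both groups.

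Cytoplasmic ribosomal protein genes were the list with the most members lower. All 79 were tested, and 77 had a lower level in the glucose-loaded libraries; the other two were Rps13 and Rpl17, at 0.11 and 0.05 on the log2 scale. The median log2 fold change was -0.58, with a range from -1.94 to 0.11, next to -0.03 over all genes. At an unadjusted p under 0.05 there were 33 members (41.8%), all lower, next to 4.91% of all genes, and 9 were below control in all 6 libraries (11.4%, next to 2.05%). None passed edgeR's adjusted threshold. DESeq2 called 5 of the 79 lower (Rpl13, Rpl7, Rpl6, Rpsa and Rpl30), next to 0.819% of all genes. The 31 small subunit and 46 large subunit members had similar medians, -0.56 and -0.59.

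The median over members was -0.89 with glucose alone and -0.29 with glucose and serum, and the libraries with serum overlapped with control. The median by library, relative to the control mean, was -0.10, 0.39 and -0.33 in control, -1.04, -0.67 and -0.88 with glucose alone, and -0.53, -0.05 and -0.38 with glucose and serum. All 3 glucose-alone libraries lay below all controls, whereas library 2 with serum lay above 2 of the 3 controls. Without control library 2, the highest, the pooled median was -0.35 in place of -0.58. Many ribosomal protein genes have processed copies: 14 of the 79 had under 10% of their stretches in other genes, and all 14 were lower, with a median of -0.56.

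Rpl6 had 145, 253 and 129.9 CPM in control, 87.9, 80.6 and 111 CPM with glucose alone, and 50.1, 88.9 and 61.1 CPM with glucose and serum (log2 fold change -1.16 ± 0.28). Rps10 had 163, 206 and 125 CPM in control and 40.9 to 116 CPM in the 6 (log2 fold change -1.02 ± 0.32). Rpl7 had a lower value, -1.87 ± 0.43, but its libraries overlapped: 93.4, 218 and 54.9 CPM in control against 18.1 to 61.4 CPM. In Rpl6 and Rpl7 control library 2 was more than 1.5 times each other control, which is the same library that lifts the control median of the list.

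The first transcribed bases of 6 of these genes are shown because the pyrimidine run there is what the family is known for. The 6 are examples and not the first by p. Rpsa, Rpl37, Rps3, Rps4x and Rpl11 had a lower p than Rps18 and Rpl27a, and their windows start with A or G and hold no run. The share over all windows is given after the sequences. Each window is 40 bases, 20 before and 20 from the RefSeq start on GRCm38.p6, on the strand of the gene, with the pyrimidine run that begins at the start base in capitals.
Rpl13, chr8:123102330-123102369, plus strand: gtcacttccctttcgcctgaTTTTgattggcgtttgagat
Rpl15, chr14:18270967-18271006, minus strand: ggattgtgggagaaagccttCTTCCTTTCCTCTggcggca
Rps10, chr17:27635225-27635264, minus strand: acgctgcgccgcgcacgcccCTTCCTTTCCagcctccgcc
Rps18, chr17:33955646-33955685, minus strand: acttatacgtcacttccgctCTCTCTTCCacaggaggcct
Rpl27a, chr7:109519175-109519214, plus strand: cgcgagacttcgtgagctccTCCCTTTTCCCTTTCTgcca
Rpl6, chr5:121204481-121204520, plus strand: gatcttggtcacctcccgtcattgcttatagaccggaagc
A C at the start followed by at least 4 pyrimidines was found in 14 of 68 windows of 58 ribosomal protein genes (20.6%) and in 373 of 15297 windows of the genes tested (2.44%). The search read the gene's strand only. Rpl13 and Rpl6, which lay lower in all 6 libraries, lack it in these windows, and Rps10 and Rps18, which did too, hold it. Rpl27a has a long run that begins with T, and Rpl15, whose libraries overlapped with control, holds the match. A match describes the letters at the annotated start, which can be off by some bases from the start used in the embryo.

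**Figure D3:**
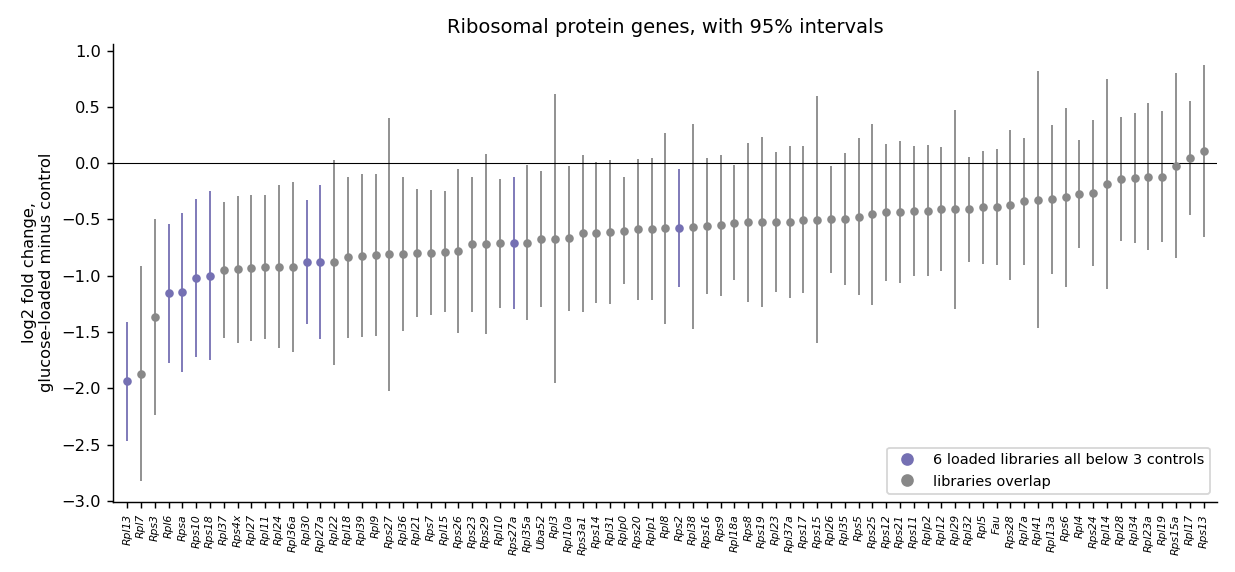
Each point is the log2 fold change of 1 of 79 ribosomal protein genes, glucose-loaded minus control, with its 95% interval from edgeR as a vertical line. Purple marks the 9 genes whose 6 glucose-loaded libraries all lie below the 3 controls; 77 points lie under 0, and 33 intervals do not reach 0.

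Of 78 mitochondrial ribosomal proteins 57 were lower, with a median of -0.32, of -0.31 in both glucose-loaded groups, and 8 lower members had an unadjusted p under 0.05 (10.3%, next to 4.91% of all genes). Mrpl4 had 61.1, 49.8 and 63.9 CPM in control and 17.1 to 38.4 CPM in the 6 (log2 fold change -1.19 ± 0.31). Of 54 ribosome assembly factors 40 were lower, with a median of -0.33 (-0.22 without control library 3), and 2 had an unadjusted p under 0.05 (3.70%), which is under the share of all genes. Of 43 translation factors 30 were lower, with a median of -0.12, but 21 with glucose alone, where the median was 0.0021, and 31 with glucose and serum, where it was -0.26. The pooled median was -0.29 without glucose-alone library 2. Eif2s1, the alpha subunit of the initiator factor that stress kinases phosphorylate, had 154, 124 and 130.02 CPM in control, 108, 107 and 93.6 CPM with glucose alone, and 53.9, 52.2 and 59.4 CPM with glucose and serum. Eif2s1 followed the order of Paip1, with serum lowest. Eif4ebp1, the translation inhibitor that mTOR phosphorylates, had 98.2, 86.7 and 50.4 CPM in control and 17.6 to 42.3 CPM in the 6 (log2 fold change -1.24 ± 0.32).

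The list of sterol and fatty acid synthesis genes had a lower median in both glucose-loaded groups. Of 39 tested, 29 were lower, with a median of -0.38, of -0.25 with glucose alone and -0.47 with glucose and serum. At an unadjusted p under 0.05 there were 6 lower (15.4%, next to 4.91% of all genes) and 0 higher, and DESeq2 called 4 lower (Insig1, Ebp, Elovl6 and Scd1), next to 0.819% of all genes. Without glucose-alone library 1 the median was -0.61. Insig1, which holds sterol sensors in the endoplasmic reticulum, had 146, 158 and 92.7 CPM in control, 74.3, 76.4 and 68.8 CPM with glucose alone, and 68.4, 51.2 and 67.8 CPM with glucose and serum. Elovl6, which lengthens saturated fatty acids, had 19.6, 36.8 and 38.4 CPM in control and 6.31 to 13.4 CPM in the 6. Both were below control in all 6 libraries. Scd1, the desaturase that makes oleate, had a log2 fold change of -2.21 ± 0.51 but overlapped, with 30.6, 30.5 and 90.6 CPM in control and 34.8 CPM in glucose-alone library 2.

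Few of the genes that handle glucose itself stood apart from control. In glycolysis 0 of 30 tested genes had an unadjusted p under 0.05, next to 4.91% of all genes lower and 3.88% higher. Of the 30 genes 18 were lower, with a median of -0.21, which was -0.0053 without control library 1 and -0.48 without control library 3. The transporter gene Slc2a1 had 30.6, 57.8 and 9.72 CPM in control and 10.4 to 30.1 CPM in the 6, within the range of the controls. Txnip, a glucose-responsive inhibitor of thioredoxin, had 15.6, 23.4 and 29.1 CPM in control and 19.2 to 32.7 CPM in the 6, with a log2 fold change of 0.10 (95% interval -0.66 to 0.86). Slc2a2, a low-affinity glucose transporter, was above control in all 6 libraries, but at 0.539 to 2.42 CPM against 0.219 to 0.438 CPM. Of 45 genes of glucose transport and insulin signalling 22 were lower and 23 higher, with a median of 0.01. In the list of pentose phosphate, hexosamine, polyol and glyoxalase genes 11 of 19 were lower, and Hagh alone had an unadjusted p under 0.05. That is 5.26% of the list, close to the 4.91% of all genes that were lower at that p.

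Genes against osmotic and oxidative stress lay on both sides of control. Of 15 tested osmotic stress genes, 3 were higher in all 6 libraries (Aqp9, Aqp3 and Slc6a20b), next to 1.97% of all genes, and Lrrc8a lower (6.67%, next to 2.05%). Aqp9, a channel for water and small solutes, had 4.09, 15.9 and 14.2 CPM in control and 19.8 to 34.6 CPM in the 6 (log2 fold change 1.14 ± 0.48), whereas Aqp3 and Slc6a20b stayed under 13 CPM in every library. Lrrc8a, the core of the channel that releases solutes from swollen cells, had 46.6 to 63.6 CPM in control and 21.6 to 46.2 CPM in the 6. Of the 50-base stretches of Lrrc8a transcripts, 65.2% also occur in other annotated genes, so reads of those genes may be mixed into its count. Of 49 antioxidant and glutathione genes 26 were lower, and the median was -0.03, as over all genes, but -0.19 without both outlying libraries. Prdx6, a peroxidase of lipid peroxides, had 106, 159.8 and 182 CPM in control and 48.5 to 86.4 CPM in the 6 (log2 fold change -1.19 ± 0.26), and Gstt1, a glutathione transferase, had 8.90, 12.7 and 14 CPM against 0.445 to 5.53 CPM. Gpx4, the glutathione peroxidase of membrane lipids, had a log2 fold change of -1.05 ± 0.26, and 1 glucose-loaded library overlapped with control. Chac1, a relative of Chac2, was also above control in all 6 libraries, but below 2.1 CPM in each.

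Early lineage regulators included genes on both sides. Wwtr1 and Yap1, the paired coactivators of Hippo signalling, stood on opposite sides. Wwtr1 had 40.7, 16.6 and 17.4 CPM in control, 4.09, 6.70 and 5.06 CPM with glucose alone, and 9.47, 15.8 and 10.1 CPM with glucose and serum (log2 fold change -1.65 ± 0.45). Yap1 had 179.7, 246 and 221 CPM in control and 269.9 to 379 CPM in the 6 (log2 fold change 0.57 ± 0.21). Tfap2c, a transcription factor of the trophectoderm, had 29.99, 10.1 and 10.5 CPM in control, 3.18, 3.54 and 3.26 CPM with glucose alone, and 9.87, 9.10 and 6.22 CPM with glucose and serum. In Wwtr1 and Tfap2c control library 1 was the highest, and the highest library with serum lay just under the lowest control. Of the 29 tested lineage genes 3 were higher (Gata4, Yap1 and Carm1) and 3 lower (Wwtr1, Tfap2c and Klf5) in all 6 libraries, 10.3% on each side, next to 1.97% of all genes higher and 2.05% lower. Mcm10, which starts replication forks, had 3.58, 1.94 and 2.05 CPM in control and 6.31 to 21.4 CPM in the 6 (log2 fold change 2.26 ± 0.57).

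In some lists the medians of the 2 glucose-loaded groups had opposite signs, among them the spliceosome, complex I, complexes II to V and 2-cell activation. Complex I of the respiratory chain had a pooled median of -0.20 over 36 genes, from -0.55 with glucose alone and 0.20 with glucose and serum. Complexes II to V had -0.17 over 42 genes, from -0.52 and 0.11. The 44 tested genes of 2-cell activation had -0.27, from 0.17 with glucose alone and -0.84 with glucose and serum. With 1 library left out the pooled medians ran from -0.31 (without glucose-alone library 2) to -0.13 (without library 3 with serum) for complex I. They ran from -0.30 (without control library 3) to -0.075 (without control library 2) for complexes II to V, and from -0.44 (without control library 2) to -0.13 (without control library 3) for 2-cell activation. Usp17le, a deubiquitinase of that wave, had 29.99, 29.2 and 24.1 CPM in control, 40.8, 15 and 30.1 CPM with glucose alone, and 5.60, 2.66 and 1.87 CPM with glucose and serum, so its pooled log2 fold change of -1.50 ± 0.44 came from the libraries with serum. Within complex I, 28 of 36 genes were lower with glucose alone and 15 with glucose and serum. Ndufb6 was the 1 member below control in all 6 libraries (2.78%, next to 2.05% of all genes). On the other side 1 member was above control in all 6 (2.78%, next to 1.97%). Ndufb6 had 293, 250.5 and 241 CPM in control, 153, 134 and 91.7 CPM with glucose alone, and 197, 168 and 168 CPM with glucose and serum. The comparisons of the 2 glucose-loaded groups with control share the 3 control libraries.

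**Figure D4:**
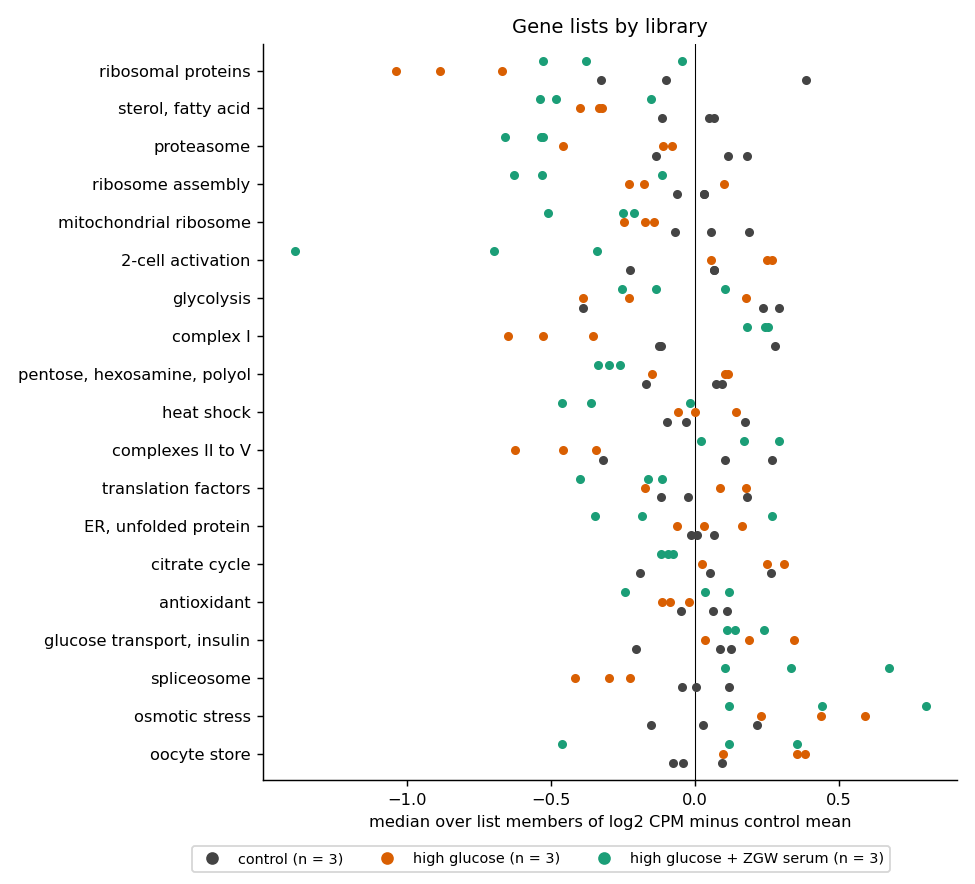
Each point is 1 library's median, over the tested members of a gene list, of log2 CPM minus the mean of the 3 controls, with 19 lists ordered by their pooled median. Ribosomal protein, sterol and mitochondrial ribosome lists have both glucose-loaded groups left of 0, whereas complex I, spliceosome and 2-cell activation have the 2 groups on opposite sides of 0.

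The oocyte's stored RNA did not follow a single direction. Of 75 tested genes of the oocyte store 47 were higher and 28 lower, with a median of 0.10 (-0.010 without library 3 with serum), and 2 had an unadjusted p under 0.05, a smaller share than in all genes. The Pol II and Mediator list had 36 of 55 lower with a median of -0.18, and heat shock proteins 21 of 36 lower with a median of -0.17 (-0.29 without control library 1, -0.046 without control library 3). Amino acid transporters had 5 of 19 members lower at an unadjusted p under 0.05 (26.3%, next to 4.91% of all genes), but a median of 0.25, which was below 0 without control library 3 and was -0.063 without library 3 with serum.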

How the data were processed

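RNA was sequenced from 9 libraries. The authors deposited a table of raw counts, whole numbers per gene symbol with no normalization. Per the submitters' processing notes Trim Galore and mm10 were used; aligner, counter, annotation and strand setting: not given in the sources used here. Groups and replicate numbers came from the labels. Genes were tested in R 4.3.3 with edgeR 4.0.16 (quasi-likelihood, robust, TMM factors), with genes kept by filterByExpr at a minimum count of 10, 1 mean per group, and the mean of both glucose-loaded groups minus control as contrast. P-values were adjusted by Benjamini-Hochberg over 16964 genes, with 0.05 as the threshold. Standard errors and 95% intervals come from the F statistic. Alternatives were DESeq2 1.42.0 (1202 genes without an adjusted p), limma-voom 3.58.1, other scaling and filters, a 2-group design, a replicate block, thinned counts, and libraries left out. CPM are counts relative to the TMM-scaled library, and medians by library used a prior count of 2. The scripts were tested on simulated data.

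Named genes have a mean of at least 10 CPM and no predicted or clone symbol: the first 12 each way by p among genes whose libraries do not overlap, and up to 3 members of lowest p of each of 33 lists. List members outside that rule (such as Slc2a1, Txnip, Slc2a2, Gstt1, Chac1, Aqp3, Slc6a20b, Yap1, Tfap2c, Klf5, Carm1, Mcm10, Igfbp5, Dcp1a, Lsm14a, Rpsa, Rpl30, Rps10 and Rps18) were named after their values were seen. The groups, members and lists were chosen with earlier results of these data known, so lists are described by counts and medians and not tested. Positions are from GENCODE M21 and sequences from RefSeq.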

Additional observations from a re-analysis of the deposited data

Results flagged for a closer look

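In groups of 6 glucose-loaded libraries, 6 of 57 values had 1 library set apart from the other 5 by more than 0.625 of the range, where chance gives about 1 in 20. Tsnax was 29.4 CPM in glucose-alone library 3, and Rassf5 was 55.0 CPM in the same library. Among list medians relative to control, the mitochondrial ribosome was at -0.51 and the oocyte store at -0.46 in library 2 with serum. Autophagy was at -0.12 in library 1 with serum, and apoptosis and p53 at -0.11 in glucose-alone library 1.

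In 5 lists every library of one glucose-loaded group lay on one side of the control mean and every library of the other group on the opposite side; this difference was not tested. The mean of the library medians, glucose alone first and glucose with serum second, was -0.51 and 0.23 for complex I, and -0.48 and 0.16 for complexes II to V. It was 0.20 and -0.095 for the citrate cycle, -0.31 and 0.37 for the spliceosome, and 0.19 and -0.81 for 2-cell activation.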

How the results depend on the processing

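The edgeR count of 0 genes was 0 under each edgeR alternative run and in limma-voom, and DESeq2 called 238. Whether the replicate numbers pair the libraries is not stated by the labels and is not settled by these values. Correlations ran from -0.0065 to 0.104 for same-numbered libraries of different groups and from -0.095 to 0.046 for the others. Of the 9 libraries, 6 correlated best with their own number. With the number as a replicate block the count was 0. The 682 genes without overlap became 898 to 2082 with 1 library left out and 1874 without both outlying libraries, where fewer libraries make overlap less likely by construction.

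Of the list medians, sterol and fatty acid synthesis moved from -0.38 to -0.52 in thinned counts and ran from -0.61 to -0.34 with 1 library left out. The mitochondrial ribosome ran from -0.43 to -0.19, with -0.19 without control library 1. The spliceosome moved from 0.04 to 0.23 in the 2-group design. Cumulus markers moved from -1.67 to -0.53 without a filter and -0.46 with 10 counts in 6 libraries, and ran from -1.86 to -0.97 with 1 library left out. Apoptosis and p53 turned from 0.08 to -0.00066 with 10 counts in 6 libraries and -0.16 without both outlying libraries, and ran from -0.093 to 0.089 with 1 library left out. Lineage factors ran from -0.22 to 0.032 with 1 library left out. Without both outlying libraries, antioxidant genes moved from -0.03 to -0.19 and osmotic stress genes from 0.10 to 0.35. Why these moved was not tested. For single genes the alternatives were run only for those picked by the naming rule with a low unadjusted p in the main test. Those genes kept their direction in all 1908 alternative values, 40 of which, all from DESeq2, passed the threshold. They had been picked for their difference in these same libraries, so a kept direction was likely by construction and adds little. Rule-picked genes with a higher p, such as Pecam1, were not checked in this way. Nor were genes named outside the rule, such as Slc2a1, Txnip, Yap1 and Igfbp5. The standard error was 0.67 in the median gene, and edgeR called no gene of any size.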
